A study of Homo sapiens with 17 samples.

Results

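Fc receptors are the cell-surface proteins that bind the constant part of an antibody, and 8 of their genes were followed here through every library of the series: FCAR, FCGR1A, FCGR2A, FCGR2B, FCGR3A, FCER1A, FCER1G and FCGRT. They were chosen by name, and each was found by its Ensembl identifier among the 58278 gene identifiers of the deposited counts. Myeloid cells use Fc receptors to take up antibody-coated particles, to kill coated cells and to release mediators. The activating receptors bind IgG, IgA or IgE and signal through paired tyrosines (an ITAM), which lie in most cases on a separate partner, the common gamma chain encoded by FCER1G; kinases of the SRC family and SYK carry the signal on. FCGR2B carries the opposite, inhibitory motif, and FCGRT, the neonatal Fc receptor, pairs with B2M and returns IgG from the endosome to the cell surface.

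RNA sequencing had been carried out on MOLM13, an established human acute myeloid leukaemia line with the MLL-AF9 fusion oncogene, so every library, controls included, carries that fusion. The first experiment held 3 libraries of cells given a non-targeting CRISPR guide (NT), 3 with a HOXA9 knockout (HOXA9_KO) and 3 with a SAFB knockout (SAFB_KO). The second held 4 control libraries, again with a non-targeting guide (NT_MEIS1ex), and 4 in which MEIS1 was knocked out (MEIS1_KO). MEIS1 and HOXA9 encode homeodomain proteins on which this type of leukaemia relies, and SAFB encodes a protein of the nuclear matrix; the comparisons ask how Fc receptor RNA depends on each of them. The labels give a single cell line and name neither clones or pools, the guide sequences, nor the time between editing and harvest, and they do not say whether replicates were separate cultures, so that p-values measure the spread between these libraries, which may be technical.

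Counts assigned to genes numbered 30737884 to 67842104 per library in the first experiment and 23264176 to 33232459 in the second. Mitochondrial ribosomal RNA took 22.5% to 28.4% of them in NT, 31.9% to 35.5% in HOXA9_KO and 24.9% to 27.0% in SAFB_KO, but at most 0.0094% in the second experiment, so levels were scaled within each experiment and each knockout was set against its own controls. HOXA9 RNA averaged 21.4 CPM ± 0.445 (SD, n = 3) in HOXA9_KO against 40.9 CPM ± 0.969 in NT, SAFB RNA 20.7 CPM ± 1.42 in SAFB_KO against 38.3 CPM ± 4.07, and MEIS1 RNA 11.2 CPM ± 1.10 (SD, n = 4) in MEIS1_KO against 32.4 CPM ± 0.824 in NT_MEIS1ex. MEIS1 RNA also stood lower in HOXA9_KO (16.8 CPM ± 0.816) and, by less, in SAFB_KO (39.7 CPM ± 1.72) than in NT (49.1 CPM ± 1.06). The myeloid identity of the line was visible in all 5 groups, where none of 7 myeloid leukaemia markers (CD33, FLT3, SPI1, CEBPA, ITGAM, LYZ and CSF1R) was at 0 or under 1 CPM in every library. Levels below are CPM, the usual depth-scaled read counts, after TMM scaling, and changes are log2 fold changes ± SE; a gene is said to rise or fall where edgeR's quasi-likelihood test gave a Benjamini-Hochberg adjusted p under 0.05 over all tested genes.

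Of the 8 Fc receptor genes, 6 lie on chromosome 1 and 2 on chromosome 19 (GRCh38, GENCODE 29). FCER1A occupies positions 159289714 to 159308224 and FCER1G positions 161215234 to 161220699 of chromosome 1, both on the plus strand. FCGR2A (161505430 to 161524013, plus strand), FCGR3A (161541759 to 161550737, minus strand) and FCGR2B (161663147 to 161678654, plus strand) form a cluster of duplicated genes nearby, while FCGR1A lies apart at 149782671 to 149792518 on the plus strand. On chromosome 19, FCGRT spans 49506816 to 49526333 and FCAR spans 54874248 to 54890472, both on the plus strand. Duplication matters for counting: of all stretches of 150 consecutive transcript bases, 18.8% in FCGR1A, 7.49% in FCGR2B, 4.45% in FCGR3A and 2.82% in FCGR2A occur identically in another gene, against none in FCAR, FCER1A, FCER1G and FCGRT. For FCGR2A most of these stretches (2.41%) occur in AL590385.2, a gene of the same strand that overlaps its exons, and 1.23% occur in the copy FCGR2C. Values of those 4 FCGR genes are therefore less certain, since neither labels nor file headers state how reads with several matches were counted. The deposited counts' own tally of such reads is 0 in every library. What was done with these reads before counting is not stated. For FCGR1A, 24.6% of the exon bases also belong to genes of the opposite strand, among them the histone gene H2BC18, and the strand setting of the counting is not stated either.

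The promoters of FCGR1A and FCGR2A, the genes for the high-affinity and the most abundant low-affinity IgG receptor in these cells, are shown because they share a stretch of sequence, and that of FCGR2B because its RNA rose in HOXA9_KO and MEIS1_KO but not in SAFB_KO. RefSeq promoter windows (GRCh38.p14) were found for 7 of the 8 genes. All stretches are on the plus strand of chromosome 1, from 5′ to 3′. Capitals mark, in FCGR1A and FCGR2A, a run of 20 bases common to both (-52 to -33 and -51 to -32 from the RefSeq start) and, in FCGR1A, also a match to TTCNNNGAA; in FCGR2B they mark matches to GAGGAA and TTCNNNGAA.
FCGR1A, chr1:149782509-149782670: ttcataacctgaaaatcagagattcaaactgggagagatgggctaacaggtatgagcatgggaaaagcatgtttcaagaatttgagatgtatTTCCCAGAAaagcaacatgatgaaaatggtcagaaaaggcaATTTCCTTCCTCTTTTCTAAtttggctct
FCGR2A, chr1:161505272-161505429: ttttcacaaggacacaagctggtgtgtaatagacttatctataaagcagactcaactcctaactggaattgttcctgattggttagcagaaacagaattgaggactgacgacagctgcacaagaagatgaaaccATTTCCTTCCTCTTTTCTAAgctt
FCGR2B, chr1:161662958-161663142: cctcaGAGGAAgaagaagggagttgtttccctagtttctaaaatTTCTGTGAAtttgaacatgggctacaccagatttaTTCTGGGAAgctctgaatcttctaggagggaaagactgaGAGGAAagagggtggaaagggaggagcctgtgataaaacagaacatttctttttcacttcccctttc
The shared run, ATTTCCTTCCTCTTTTCTAA, was picked as the longest run common to the FCGR1A and FCGR2A windows, so these 2 matches were given. It was found in no other of the 34788 distinct promoter windows searched. It holds TTCCTC, the reverse complement of the PU.1 core GAGGAA. PU.1, encoded by SPI1, is a transcription factor of the myeloid lineage. In all, 6 motifs were searched on both strands over the 250 bases before each start, and a match is a description of the letters only. GAGGAA matched in 3 of the 7 Fc receptor promoters (FCGR1A, FCGR2A and FCGR2B) and in 23.6% of all windows. TTCNNNGAA matched in 2 (FCGR1A at -93 to -85, FCGR2B at -141 to -133 and -106 to -98) and in 6.57% of all windows. The HOX-PBX pattern TGATTNAT matched in 1, an upstream start of FCGR2B, where it overlaps a match to the AP-1 pattern TGANTCA (2.48% and 6.59% of all windows). The MEIS pattern TGACAG matched in FCGR3A and in 13.03% of all windows, and the C/EBP pattern TTNNGNAAT matched in none of the 7 and in 9.87% of all windows.

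Loss of HOXA9 was accompanied by higher RNA of 7 of the 8 Fc receptor genes, FCER1A being the exception, against a background of 27.6% of 18876 tested genes that rose and 29.9% that fell. In SAFB_KO, 7 of 8 rose as well, with FCGR2B as the exception, against 20.2% of all tested genes that rose and 15.3% that fell. MEIS1_KO had 5 of 7 tested members higher, against 4.97% of 15744 tested genes that rose and 3.84% that fell; FCGR1A and FCER1A did not pass the test and FCGR3A was too low to be tested. No member fell in any of the 3 knockouts. The knockout libraries stood above every control for 7 genes in HOXA9_KO, 7 in SAFB_KO and 6 of the 7 tested in MEIS1_KO, where 29.1%, 24.1% and 8.43% of all tested genes did. FCGR3A entered the first experiment's test with at most 8 counts in any NT library and 43 to 62 in HOXA9_KO, so its passing the filter on low counts depended on the group in which it was high. HOXA9_KO and SAFB_KO were both set against the same 3 NT libraries. When libraries were scaled to the summed counts of nuclear protein-coding genes instead, the median over all genes shifted by -0.25 in HOXA9_KO, -0.14 in SAFB_KO and 0.03 in MEIS1_KO, and the members that rose numbered 6, 6 and 6; FCGR2A lost its calls in the first 2 knockouts, FCGR1A gained one in MEIS1_KO, and FCGR2B fell in SAFB_KO.

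**Figure D1:**
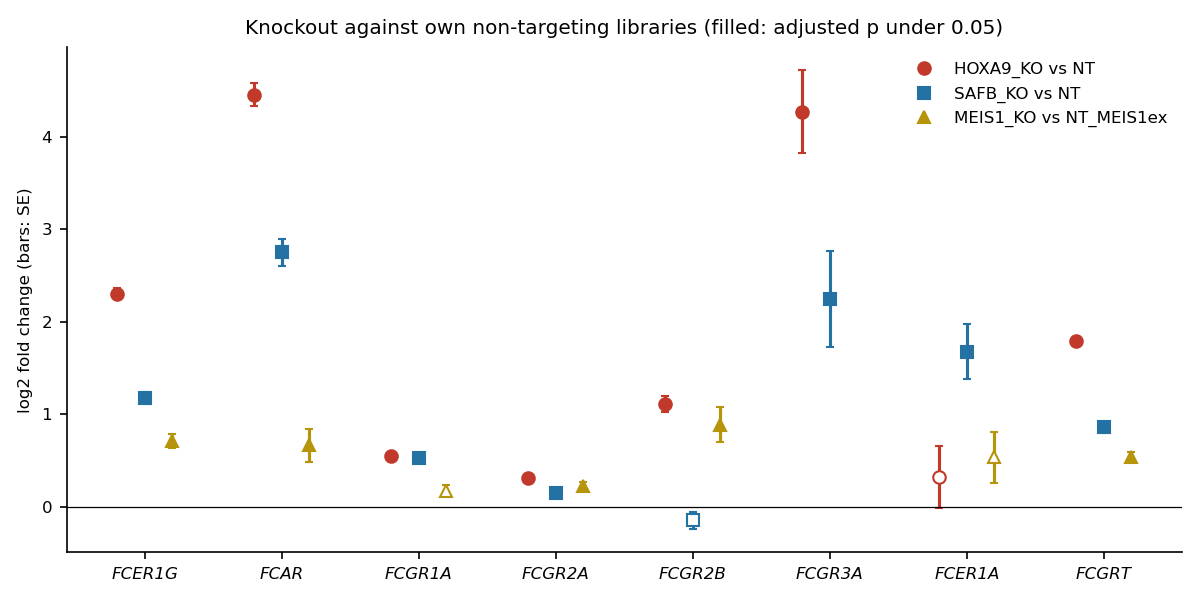
Log2 fold changes (y axis, bars are SE) of the 8 Fc receptor genes (x axis) in each knockout against the non-targeting libraries of the same experiment; filled symbols have an adjusted p under 0.05. FCAR and FCGR3A lie above 4 in HOXA9_KO, FCGR2B is the one gene below 0 (SAFB_KO, open symbol), and FCGR3A has no MEIS1_KO point because it was not tested there.

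FCER1G, the signalling partner of the activating receptors, rose in all 3 knockouts. Its level was 13.5, 10.9 and 11.9 CPM in NT, 57.6, 59.8 and 62.8 CPM in HOXA9_KO and 27.3, 26.9 and 28.1 CPM in SAFB_KO. No library of one group overlapped with those of another, and SAFB_KO stood between NT and HOXA9_KO. The change was 2.30 ± 0.06 in HOXA9_KO (adjusted p = 2.4e-34), a 4.94-fold rise, and 1.17 ± 0.06 in SAFB_KO (adjusted p = 8.0e-21), a 2.25-fold rise. In the MEIS1 experiment the controls held 12.5, 13.9, 13.2 and 12.3 CPM of FCER1G, and the MEIS1_KO libraries 23.1, 21.0, 19.3 and 21.4 CPM. Every MEIS1_KO library was above every control, by 0.71 ± 0.07 (adjusted p = 1.0e-05).

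FCAR, the receptor for IgA (CD89), had, with FCGR3A, the largest changes of the 8 genes in HOXA9_KO and SAFB_KO. FCAR changed by 4.45 ± 0.13 and FCGR3A by 4.27 ± 0.45 in HOXA9_KO, and without NT replicate 1 FCGR3A (4.78) stood above FCAR (4.49). In NT, FCAR was close to silent at 0.852, 0.711 and 0.912 CPM, which is 36 to 63 counts per library. It reached 19.5, 17.1 and 17.9 CPM in HOXA9_KO and 4.92, 5.51 and 6.28 CPM in SAFB_KO, a 21.9-fold and a 6.73-fold rise with no overlap between groups. The change in SAFB_KO was 2.75 ± 0.14 (adjusted p = 1.3e-21). In the MEIS1 experiment the levels were 0.928, 1.17, 1.04 and 0.964 CPM in NT_MEIS1ex and 1.54, 1.54, 1.64 and 1.81 CPM in MEIS1_KO. These groups did not overlap either, but the rise was small at 0.66 ± 0.17 (adjusted p = 0.0231). That call did not hold without MEIS1_KO replicate 3 or 4 or NT_MEIS1ex replicate 3 or 4, where the adjusted p lay between 0.0524 and 0.0659 and the change between 0.61 and 0.67.

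**Figure D2:**
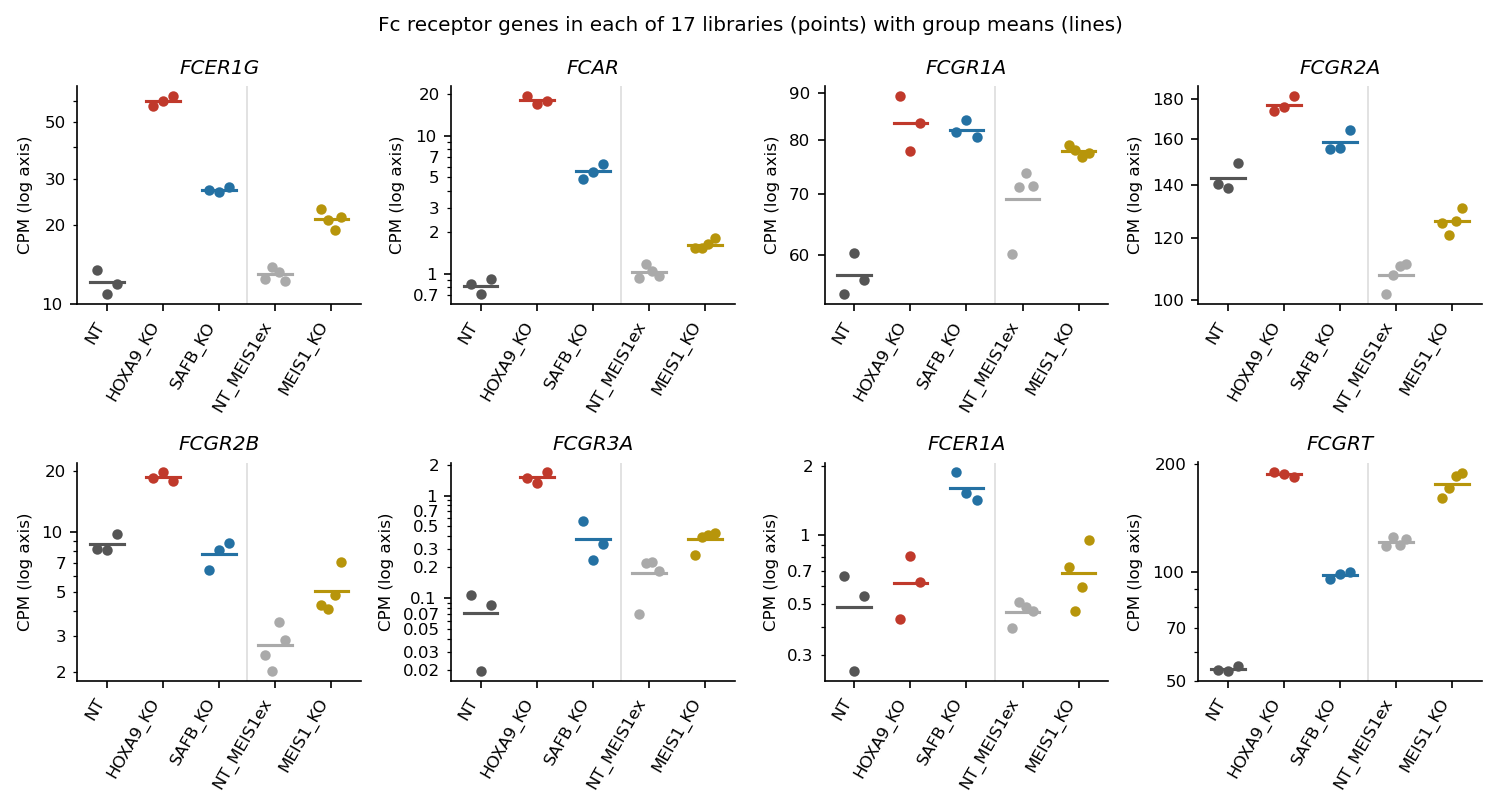
CPM of the 8 Fc receptor genes in each of the 17 libraries on log axes (points) with group means (lines); the grey line parts the 2 experiments, which were scaled separately. FCER1G and FCAR step up from NT to SAFB_KO to HOXA9_KO, and FCER1A is highest in SAFB_KO.

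FCGR1A, the high-affinity IgG receptor (CD64), rose in HOXA9_KO and SAFB_KO. NT held 54.4, 60.3 and 56.5 CPM, HOXA9_KO 89.4, 77.8 and 83.6 CPM, and SAFB_KO 81.6, 84.1 and 80.7 CPM. Both knockouts stood above every NT library and overlapped each other. The changes were 0.55 ± 0.04 (adjusted p = 4.9e-15) and 0.53 ± 0.04 (adjusted p = 8.5e-14), and the difference between the knockouts, 0.02 ± 0.04, did not pass (adjusted p = 0.706). In the MEIS1 experiment NT_MEIS1ex held 60.1, 71.2, 73.6 and 71.3 CPM and MEIS1_KO 79.1, 78.1, 76.7 and 77.5 CPM. Although these groups did not overlap, the difference of 0.17 ± 0.06 missed the threshold (adjusted p = 0.0778). H2BC18, examined after its values were seen because its exons overlap those of FCGR1A on the opposite strand, fell in HOXA9_KO from 201 CPM ± 13.9 to 123 CPM ± 1.89, the direction opposite to FCGR1A, and fell in the other two knockouts as well. Of the near-copies, FCGR1BP lay at 7.59 CPM ± 0.602 in NT and 7.55 CPM ± 0.182 in HOXA9_KO without passing the test, and FCGR1CP fell by 0.34 ± 0.07 in HOXA9_KO (adjusted p = 9.2e-05).

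FCGR1A is known as a gene that interferon induces, and the interferon-response genes moved the other way in the first experiment. All 20 tested type I interferon-response genes (such as IFIT1, ISG15 and MX1) fell in HOXA9_KO, with a median change of -3.34, and all 20 fell in SAFB_KO, with a median of -2.51; the medians over all tested genes were -0.07 and -0.02, and 29.9% and 15.3% of all tested genes fell. Their summed level was 1566 to 2140 CPM in NT, 200.1 to 223 CPM in HOXA9_KO and 368 to 410.2 CPM in SAFB_KO, so the NT libraries stood far above the knockouts. In MEIS1_KO, 3 of 20 rose and none fell, where 4.97% and 3.84% of all tested genes did, with sums of 489.6 to 735 CPM against 336 to 461 CPM in NT_MEIS1ex. The part of this difference between control and knockout libraries in the values of FCGR1A was not tested.

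**Figure D3:**
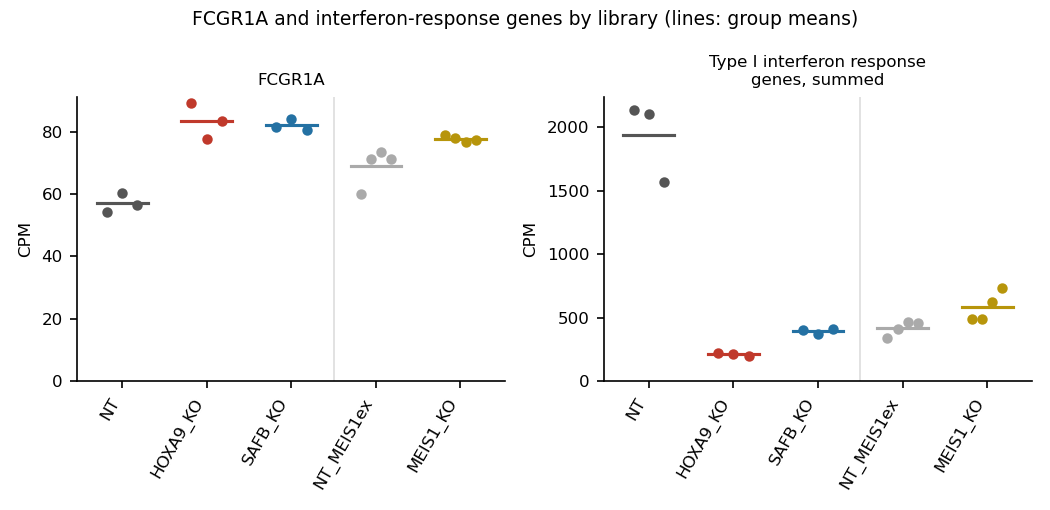
CPM of FCGR1A (left) and summed CPM of 20 type I interferon-response genes (right) in each library (points), with group means (lines) and axes from 0. In the first experiment FCGR1A is lowest in NT, where the interferon-response sum is highest.

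FCGR2A, the activating low-affinity IgG receptor (CD32A), was already abundant and changed little. NT held 140.3, 139 and 149 CPM, HOXA9_KO 174, 176 and 182 CPM and SAFB_KO 156, 156 and 165 CPM. The 3 groups did not overlap. HOXA9_KO was higher than NT by 0.31 ± 0.04 (adjusted p = 9.3e-11) and SAFB_KO by 0.15 ± 0.04 (adjusted p = 4.7e-04). With scaling to nuclear protein-coding counts these became 0.06 (adjusted p = 0.118) and 0.01 (adjusted p = 0.779), and neither passed. MEIS1_KO held 125, 121, 126 and 131 CPM against 102, 108, 110.5 and 111 CPM in NT_MEIS1ex, again without overlap, a rise of 0.22 ± 0.05 (adjusted p = 0.00657).

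FCGR2B, the inhibitory IgG receptor (CD32B), rose in HOXA9_KO and MEIS1_KO but did not pass the test in SAFB_KO. NT held 8.22, 8.09 and 9.75 CPM and HOXA9_KO 18.5, 19.8 and 17.9 CPM, a 2.16-fold rise (1.11 ± 0.09, adjusted p = 3.5e-15). SAFB_KO held 6.41, 8.12 and 8.80 CPM and overlapped with NT, with a difference of -0.15 ± 0.10 (adjusted p = 0.248) that became -0.29 (adjusted p = 0.0185) with nuclear protein-coding scaling. FCGR2B stood at 2.43, 2.02, 3.54 and 2.86 CPM in the controls of the MEIS1 experiment, against 4.30, 4.12, 4.84 and 7.02 CPM once MEIS1 was knocked out. All 4 knockout libraries were above all 4 controls, by 0.89 ± 0.19 (adjusted p = 0.00794). In the fit of all 17 libraries the SAFB effect minus the MEIS1 effect was -1.03 ± 0.23 (adjusted p = 0.00242), whereas the HOXA9 and MEIS1 effects differed by 0.27 ± 0.22 without passing the test (adjusted p = 0.355).

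The neighbours of FCGR2B in the cluster were examined after these values were seen. FCGR2C, a copy that combines parts of FCGR2A and FCGR2B, shares 7.26% of the 150-base stretches of FCGR2B. Its NT libraries held 12.96, 12.6 and 10.3 CPM, those of HOXA9_KO 28.3, 29.02 and 29.3 CPM and those of SAFB_KO 8.62, 9.84 and 7.75 CPM. The groups did not overlap, and FCGR2C rose by 1.27 ± 0.08 in HOXA9_KO (adjusted p = 2.1e-19) and fell by 0.45 ± 0.09 in SAFB_KO (adjusted p = 3.4e-05). HSPA7, a heat-shock pseudogene between FCGR2C and FCGR2B, had the same signs, with 1.13 ± 0.13 in HOXA9_KO (adjusted p = 1.6e-10) and -0.40 ± 0.15 in SAFB_KO (adjusted p = 0.0288), the latter with overlapping libraries. In MEIS1_KO, FCGR2C rose by 0.92 ± 0.24 (adjusted p = 0.0290) and HSPA7 by 1.04 ± 0.25 (adjusted p = 0.0134). HSPA6, the heat-shock gene next to FCGR2A, rose in HOXA9_KO from 1.70 CPM ± 0.0908 to 3.41 CPM ± 0.545 (adjusted p = 3.7e-06) and passed the test in neither other knockout. FCRLA, beyond FCGR2B, passed in none of the 3. FCRLB, further along, rose in HOXA9_KO by 0.79 ± 0.19 (adjusted p = 2.9e-04) and passed in neither other knockout. Because FCGR2B and FCGR2C share sequence, how their reads were divided was not tested.

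**Figure D4:**
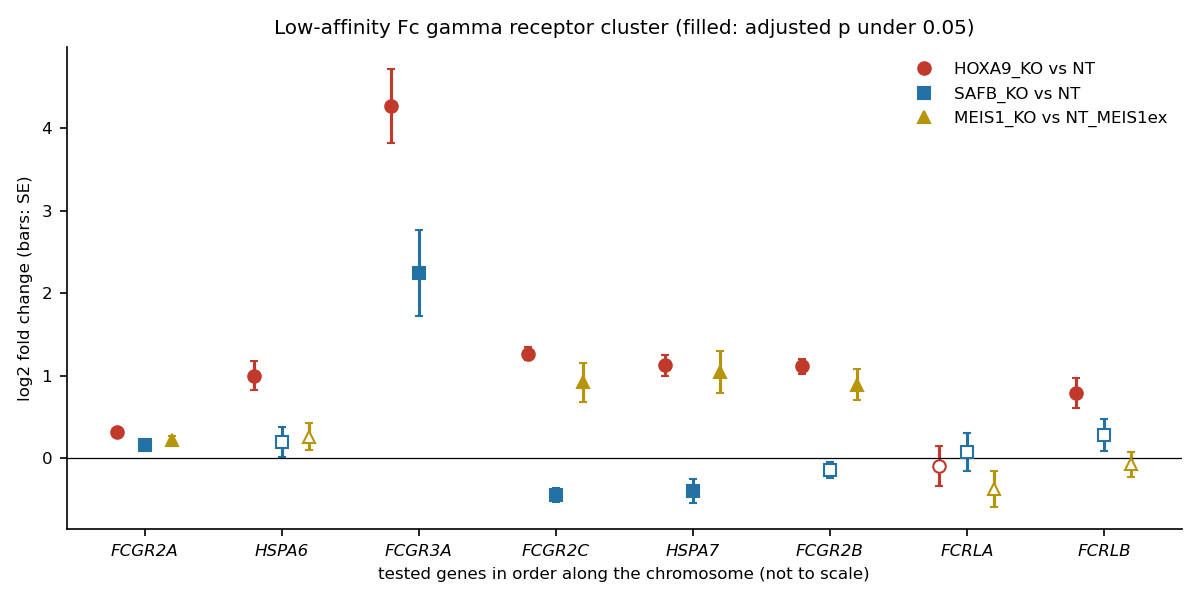
Log2 fold changes (y axis, bars are SE) of the tested, named genes from FCGR2A to FCRLB in their order along chromosome 1 (x axis, not to scale), a region chosen after the values were seen; filled symbols have an adjusted p under 0.05. FCGR2C, HSPA7 and FCGR2B lie near 1 in HOXA9_KO and MEIS1_KO and below 0 in SAFB_KO, while FCGR2A lies between 0.15 and 0.31 in all 3.

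FCGR3A (CD16A), the IgG receptor of NK cells and non-classical monocytes, was barely present in controls and rose in HOXA9_KO and SAFB_KO. Counts were 8, 1 and 4 in NT, 45, 43 and 62 in HOXA9_KO and 18, 11 and 12 in SAFB_KO. These correspond to 0.108, 0.0197 and 0.0869 CPM, to 1.49, 1.34 and 1.68 CPM and to 0.560, 0.236 and 0.340 CPM. The groups did not overlap, with changes of 4.27 ± 0.45 (adjusted p = 1.1e-11) and 2.24 ± 0.52 (adjusted p = 5.0e-04), whose size depends on very few control reads. In the MEIS1 experiment 2, 6, 6 and 6 counts in NT_MEIS1ex stood against 8, 11, 11 and 10 in MEIS1_KO, too few for the test although the libraries did not overlap. The summed level of 7 NK cell markers was 107 to 110.4 CPM in NT, 113 to 119 CPM in HOXA9_KO and 101 to 107 CPM in SAFB_KO, so it was higher in HOXA9_KO than in NT. Most of it was NCAM1 (93.6 to 97.6, 103 to 108 and 91.7 to 94.5 CPM). NKG7 went the other way, at 11.3 to 14.3 CPM in NT against 8.76 to 10.5 CPM in HOXA9_KO. The remaining 5 of 7 were under 1 CPM in every library, and NCR1 was at 0 in NT and HOXA9_KO. The part of these markers in the FCGR3A values was not tested. FCGR3B, the near-identical neutrophil copy, had at most 10 counts in any library.

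FCER1A, the alpha chain that binds IgE in the high-affinity IgE receptor, rose in SAFB_KO and passed the test in no other knockout. Its levels were 0.663, 0.257 and 0.543 CPM in NT and 1.87, 1.52 and 1.42 CPM in SAFB_KO, 13 to 49 against 50 to 71 counts per library. The groups were apart and the change was 1.67 ± 0.30 (adjusted p = 8.9e-06), a 3.19-fold rise from a low level. HOXA9_KO, at 0.431, 0.809 and 0.622 CPM, overlapped with NT (0.32 ± 0.34, adjusted p = 0.43). MEIS1_KO, at 0.722, 0.465, 0.595 and 0.947 CPM, overlapped with NT_MEIS1ex at 0.393, 0.513, 0.485 and 0.467 CPM (0.54 ± 0.27, adjusted p = 0.251). Mast cells and basophils carry this receptor with the beta chain MS4A2, which had at most 7 counts in any library. Their marker CPA3 was at 0 in every group, and the summed mast cell and basophil markers were 32.9 to 38.9 CPM in NT and 31.0 to 32.8 CPM in SAFB_KO, of which GATA2 made up 30.7 to 36.4 CPM and 29.4 to 29.8 CPM. KIT (0.395 to 0.695 CPM in NT) and ENPP3 (0 to 0.0541 CPM) stood higher in SAFB_KO, at 0.707 to 1.28 CPM and 0.0643 to 0.226 CPM. HDC went the other way, with 0.987 to 1.11 CPM in NT against 0.373 to 0.557 CPM in SAFB_KO, so the list was mixed. The part of these markers in the FCER1A values was not tested.

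FCGRT, the neonatal Fc receptor, rose in all 3 knockouts, with the smallest adjusted p of the 8 genes in each of them. NT held 53.7, 53.2 and 54.9 CPM, HOXA9_KO 189, 188 and 184 CPM and SAFB_KO 96.0, 98.7 and 100.3 CPM. All 3 groups were apart, with SAFB_KO in the middle. FCGRT rose 3.47-fold in HOXA9_KO (1.79 ± 0.04, adjusted p = 1.3e-39) and 1.82-fold in SAFB_KO (0.87 ± 0.04, adjusted p = 2.95e-25). In the MEIS1 experiment it rose from 118, 126, 119 and 123 CPM in NT_MEIS1ex to 160.4, 171, 184.8 and 188 CPM in MEIS1_KO, by 0.54 ± 0.05 (adjusted p = 8.4e-06), again without overlap. B2M, the light chain it needs, was higher by 0.19 ± 0.04 in HOXA9_KO (adjusted p = 2.8e-05), a sign that flipped to -0.07 (adjusted p = 0.0865) with nuclear protein-coding scaling. In SAFB_KO, B2M differed from NT by -0.05 ± 0.04 (adjusted p = 0.244), and in MEIS1_KO it rose by 0.19 ± 0.06 (adjusted p = 0.0369).

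Set directly against each other within their shared experiment, HOXA9_KO had more RNA than SAFB_KO for 6 of 8 Fc receptor genes and less for 1, where 20.1% of all tested genes were higher and 20.5% lower. The libraries of the 2 knockouts did not overlap for those 7 genes; over all tested genes 23.6% and 24.6% were apart in the 2 directions. The differences were 1.70 ± 0.10 for FCAR, 2.02 ± 0.38 for FCGR3A, 1.26 ± 0.09 for FCGR2B, 1.13 ± 0.06 for FCER1G, 0.93 ± 0.04 for FCGRT and 0.16 ± 0.04 for FCGR2A, the last not passing with nuclear protein-coding scaling (0.05, adjusted p = 0.289). FCER1A was lower in HOXA9_KO, with a difference of -1.35 ± 0.31 (adjusted p = 3.4e-04). Across experiments, in the fit of all 17 libraries, the HOXA9 effect exceeded the MEIS1 effect for 5 of 8 genes (FCAR, FCGR1A, FCGR3A, FCER1G and FCGRT), where 24.5% of all tested genes did, and fell short of it for none, where 19.7% did; with nuclear protein-coding scaling FCGR2A fell short of it by 0.19 (adjusted p = 0.0102). The excess was 3.83 ± 0.23 for FCAR, 1.64 ± 0.10 for FCER1G and 1.30 ± 0.07 for FCGRT. FCGR3A, counted in the direct comparison and in this difference, had 1 to 8 counts per library in NT and 2 to 6 in NT_MEIS1ex. It had 8 to 11 counts in MEIS1_KO and was too low to be tested in that experiment alone. In the direct comparison its passing the filter on low counts depended on HOXA9_KO, where it was high. The SAFB effect exceeded the MEIS1 effect for 4 (FCAR, FCGR1A, FCER1G and FCGRT) and was below it for FCGR2B, where 12.4% and 8.49% of all tested genes were. Of these, FCGR1A lost its call with nuclear protein-coding scaling in both differences (adjusted p = 0.306 and 0.0916), and FCGRT lost its call in the difference between SAFB and MEIS1 (adjusted p = 0.0699). With that scaling FCGR2A gained a lower call in the SAFB and MEIS1 difference (-0.24, adjusted p = 0.00535), which left 2 members higher and 2 lower there.

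Genes were set beside each other by CPM per kilobase of exon, with the exons of all annotated transcripts joined. The order between genes depends on that choice of length. On this scale the order of the receptors changed with the knockout. FCGR2A led in NT with 26.9 ± 1.09, followed by FCGR1A with 19.0 ± 1.01, then FCGRT with 12.9 ± 0.205 and FCER1G with 12.5 ± 1.36, which overlapped. FCGR2B stood at 1.31 ± 0.139, FCER1A and FCAR overlapped at 0.418 ± 0.179 and 0.349 ± 0.0438, and FCGR3A was last at 0.0242 ± 0.0156 (SD, n = 3 throughout). In HOXA9_KO, FCER1G led with 62.3 ± 2.71, ahead of FCGRT at 44.8 ± 0.632, FCGR2A at 33.3 ± 0.776 and FCGR1A at 27.9 ± 1.93, and FCAR had moved ahead of FCGR2B with 7.68 ± 0.509; only FCER1A and FCGR3A overlapped as neighbours in that order. In SAFB_KO, FCGR2A stayed first with 29.9 ± 0.973, and FCER1G at 28.5 ± 0.669 overlapped with FCGR1A at 27.4 ± 0.587. FCGRT led in both groups of the MEIS1 experiment, with 29.1 ± 0.846 in NT_MEIS1ex and 42.2 ± 3.09 in MEIS1_KO (SD, n = 4).

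In bulk RNA, more cells of a type and more RNA per cell cannot be told apart, and monocyte markers moved with the Fc receptors. The summed level of 9 monocyte markers was 4352 to 4454 CPM in NT, 12719 to 14384 CPM in SAFB_KO and 29046 to 31973 CPM in HOXA9_KO, and 3181 to 4843 CPM in NT_MEIS1ex against 6838 to 7227 CPM in MEIS1_KO. Nearly all of it was LYZ, at means of 4152, 12820 and 29694 CPM in NT, SAFB_KO and HOXA9_KO, while CSF1R lay at 27.3 to 28.6, 30.2 to 31.7 and 48.8 to 54.0 CPM. None was at 0 in all libraries of a group, but CD14, FCN1 and CD300E were under 1 CPM in every NT, SAFB_KO and NT_MEIS1ex library, and CD14 reached 2.51 to 2.98 CPM in HOXA9_KO. The neutrophil markers summed to 154 to 169 CPM in NT and 305 to 316 CPM in HOXA9_KO, of which CSF3R made up 144 to 160 CPM and 277 to 288 CPM, with CEACAM8 and MMP8 at 0 in NT. The part of these markers in the Fc receptor values was not tested.

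The other genes of the pathway were read from lists by role, and each count is to be read against the shares of all tested genes that rose and fell: 27.6% and 29.9% in HOXA9_KO, 20.2% and 15.3% in SAFB_KO, and 4.97% and 3.84% in MEIS1_KO. Among the 10 tested further Fc receptor and Fc receptor-like genes, 4 rose and 3 fell in HOXA9_KO, 6 rose and 2 fell in SAFB_KO, and 1 rose and 1 fell in MEIS1_KO, with medians of -0.05, 0.30 and 0.09; with nuclear protein-coding scaling the counts were 4 and 5, 3 and 2, and 1 and 0. The HOXA9_KO counts were thus near the shares of all tested genes. FCER2, the low-affinity IgE receptor CD23, rose from 61.2, 68.7 and 67.3 CPM in NT to 221, 223 and 225 CPM in HOXA9_KO (1.76 ± 0.04, adjusted p = 1.8e-38) and to 147, 139.8 and 147 CPM in SAFB_KO (1.14 ± 0.04, adjusted p = 1.8e-29). It did not pass in MEIS1_KO (0.08 ± 0.08, adjusted p = 0.59). PIGR, which carries polymeric IgA and IgM across epithelia, rose by 1.45 ± 0.10 in HOXA9_KO and 1.70 ± 0.10 in SAFB_KO. FCAMR, a receptor for IgA and IgM, rose by 0.79 ± 0.09 in SAFB_KO (adjusted p = 1.7e-09) but not in HOXA9_KO (-0.20 ± 0.10, adjusted p = 0.0935). FCMR, the IgM receptor, fell by 0.42 ± 0.11 in HOXA9_KO and by 0.31 ± 0.09 in MEIS1_KO and rose by 0.31 ± 0.10 in SAFB_KO. TRIM21 fell by 0.21 ± 0.05 in HOXA9_KO (adjusted p = 5.4e-04) and by 0.27 ± 0.05 in SAFB_KO (adjusted p = 3.1e-05).

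Partner chains and receptors that need them followed FCER1G in part. TYROBP (DAP12), an ITAM chain related in function to FCER1G, went from 84.3, 83.7 and 87.7 CPM in NT to 204, 201 and 201 CPM in HOXA9_KO and 133, 125 and 136 CPM in SAFB_KO, rises of 1.25 ± 0.04 and 0.62 ± 0.04. In MEIS1_KO it rose by 0.31 ± 0.05 (adjusted p = 4.7e-04). HCST passed the test in none of the 3 knockouts (-0.02 ± 0.15, 0.10 ± 0.14 and 0.01 ± 0.09). Of 3 tested partner chains, 2 rose in HOXA9_KO, 1 in SAFB_KO and 2 in MEIS1_KO, with none falling (27.6%, 20.2% and 4.97% of all tested genes rose). With nuclear protein-coding scaling 1 rose in HOXA9_KO, 1 rose and 1 fell in SAFB_KO, and 2 rose in MEIS1_KO. Of 9 tested other receptors that pair with FCER1G, 6 rose in HOXA9_KO and 5 in SAFB_KO, and 2 of 8 rose in MEIS1_KO, with none falling (27.6%, 20.2% and 4.97% of all tested genes rose); the medians were 0.74, 0.33 and 0.18. With nuclear protein-coding scaling 6 rose and 1 fell in HOXA9_KO, 3 rose in SAFB_KO and 2 in MEIS1_KO. LILRA2, an activating leukocyte immunoglobulin-like receptor, rose by 1.62 ± 0.06, 0.36 ± 0.06 and 0.20 ± 0.06 in the 3 knockouts. LILRA5 rose by 2.74 ± 0.23 in HOXA9_KO from 0.575 CPM ± 0.159, and CLEC4C by 2.19 ± 0.48 in SAFB_KO from 0.140 CPM ± 0.0562. CLEC4C was so low in NT that its passing the filter on low counts depended on knockout libraries. It is counted among the 5 that rose in SAFB_KO.

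Downstream of the receptors, the SRC-family kinase FGR stood out. It rose from 7.70 CPM ± 0.553 in NT to 65.0 CPM ± 1.78 in HOXA9_KO (3.09 ± 0.06, adjusted p = 2.4e-39) and to 15.7 CPM ± 0.832 in SAFB_KO (1.03 ± 0.07), and in MEIS1_KO by 0.34 ± 0.07 (adjusted p = 0.00324). SYK, the kinase that binds phosphorylated ITAMs, rose by 0.92 ± 0.03 in HOXA9_KO and 0.37 ± 0.03 in SAFB_KO, and LYN by 0.88 ± 0.04 and 0.29 ± 0.04, while TEC fell by 1.14 ± 0.05 and 0.39 ± 0.05. In all, 5 of 9 tested kinases rose and 2 fell in HOXA9_KO (27.6% and 29.9% of all tested genes), 6 rose and 2 fell in SAFB_KO (20.2% and 15.3%), and 2 rose in MEIS1_KO (4.97%), with medians of 0.53, 0.22 and 0.10; with nuclear protein-coding scaling 5 rose and 4 fell, 4 rose and 3 fell, and 3 rose. Against the same shares, of 27 tested adaptors and effectors 12 rose and 3 fell in HOXA9_KO and 10 rose and 2 fell in SAFB_KO, and 3 of 26 rose in MEIS1_KO, with medians of 0.25, 0.07 and 0.02. PIK3R5, a regulatory subunit of phosphoinositide 3-kinase gamma, rose in each, by 1.37 ± 0.05, 0.57 ± 0.05 and 0.41 ± 0.05. MYO1F, a myosin of myeloid cells, rose by 1.03 ± 0.03 and 0.31 ± 0.03 in HOXA9_KO and SAFB_KO. With nuclear protein-coding scaling the adaptors turned to 9 higher and 11 lower in HOXA9_KO and 6 higher and 8 lower in SAFB_KO, so no direction is given for that list.

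Inhibitors of the pathway moved in both directions. Of 14 tested, 9 rose and 3 fell in HOXA9_KO (27.6% and 29.9% of all tested genes), 8 rose and 2 fell in SAFB_KO (20.2% and 15.3%), and 1 rose and 1 fell in MEIS1_KO (4.97% and 3.84%), with medians of 0.23, 0.16 and -0.01; with nuclear protein-coding scaling the counts were 5 and 5 in HOXA9_KO, 5 and 5 in SAFB_KO, and 2 and 1 in MEIS1_KO. The falling counts in HOXA9_KO and SAFB_KO and both counts in MEIS1_KO were near or below the shares of all tested genes. DOK2, an adaptor that dampens RAS signalling, rose by 1.01 ± 0.04 in HOXA9_KO and 0.37 ± 0.04 in SAFB_KO, and SLA, which limits receptor levels, by 0.89 ± 0.04 and 0.39 ± 0.04. PAG1, the membrane anchor for the kinase CSK, fell in each knockout, by 0.85 ± 0.03, 0.22 ± 0.03 and 0.35 ± 0.06.

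**Figure D5:**
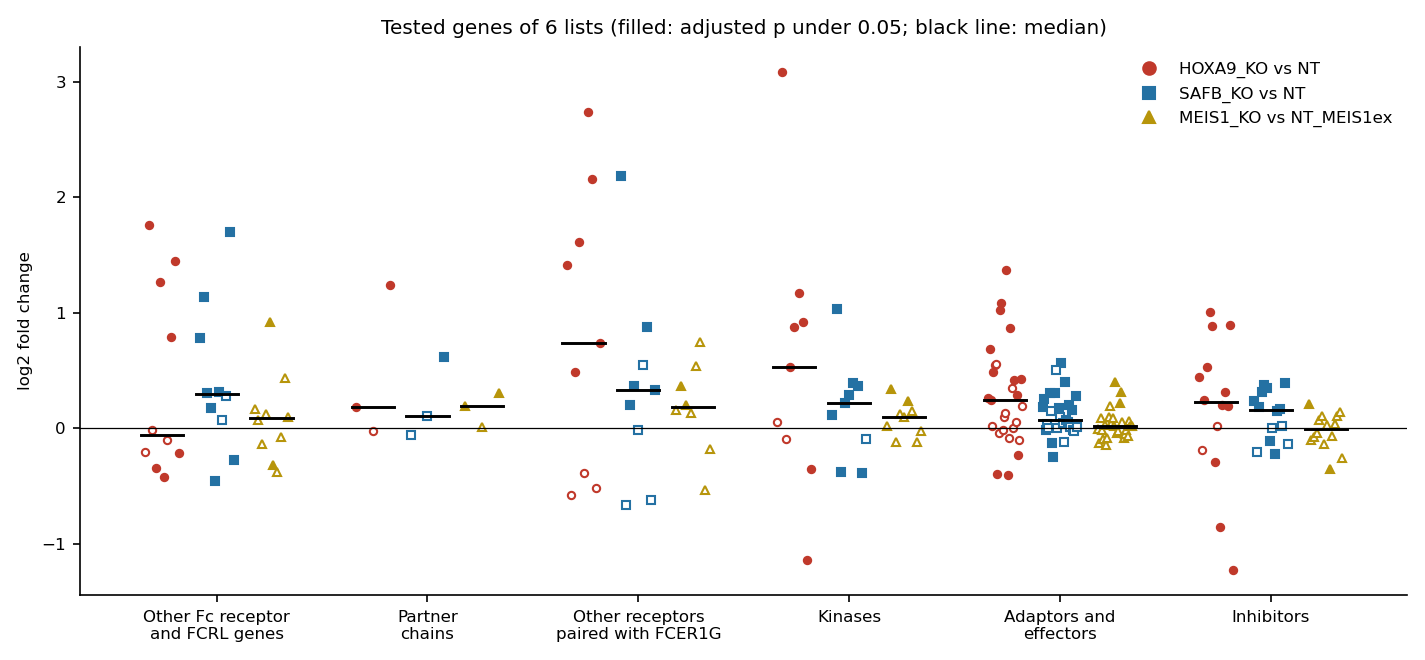
Log2 fold changes (y axis) of the tested genes of 6 lists (x axis) in each knockout, with black lines for the list medians; filled symbols have an adjusted p under 0.05. FGR is the highest point of the kinases at 3.09 in HOXA9_KO, and the medians of the adaptors lie between 0.02 and 0.25.

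Genes whose 3 knockout changes were nearest to those of each member were sought among 11602 genes (11603 for FCER1A) by Euclidean distance on the log2 scale. Nearest to FCAR were the calprotectin gene S100A9 at a distance of 0.64, the glucosidase-like MGAM2 at 0.99 and the other calprotectin gene S100A8 at 1.09. The genes nearest to FCER1G were ACOX2, a peroxisomal oxidase (0.14), the myeloid lectin CLEC12A (0.17) and the globin CYGB (0.20). For FCGRT they were PLAC8 (0.07), CD101 (0.09) and PTGDS (0.11). FCGR1A lay nearest to ATP6AP1-DT (0.06), TPMT (0.06) and DDB2 (0.07), FCGR2A to STXBP3 (0.03), C4orf3 (0.04) and ADCY7 (0.04), and FCGR2B to TREML1 (0.36), ROS1 (0.36) and MARCHF1 (0.37). The nearest to FCER1A was PRG2, the eosinophil granule major basic protein, at 0.48, with changes of 0.29, 1.20 and 0.54, followed by CLU (0.68) and ABCA6 (0.72). FCGR3A has no such neighbours because it lacks a tested MEIS1_KO change. Small changes lie close to many genes, so distances of members with small changes cannot be compared with those of members with large ones.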

How the data were processed

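Libraries had been made from total RNA after depletion of ribosomal RNA with a directional kit, per the labels' protocols. Per the submitters' processing notes, Trim Galore, STAR 2.7.10a, HTSeq 1.99.2 and bedtools were used with hg38. The deposited values are raw counts per gene; neither labels nor file headers state the annotation release or the strand setting. Reads outside genes (6.07% to 18.1%) and in several genes (6.09% to 12.2%) stayed out of library sizes. Counts were filtered (filterByExpr, at least 10 counts and 15 in total), TMM-scaled and compared with edgeR 4.0.16 under R 4.3.3 (robust quasi-likelihood), in 1 fit of 9 libraries, 1 of 8 and 1 of 17 for differences between effects. The SE is the change divided by the root of F. The code was tested on simulated data. The members, lists and comparisons were chosen with earlier results of these data known. Named from each list were up to 4 genes per knockout by the smallest p; likeness used genes with at least 2 CPM in their highest group. Promoters came from RefSeq. Alternatives were RLE factors, nuclear protein-coding scaling, no filter, a mean of 2 CPM, DESeq2 1.42.0, limma-voom (3.58.1), a replicate block, other libraries in the fit and leaving out each library. The planned search for protein motifs was not run, and 1 of the planned gene lists is not reported here.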

Additional observations from a re-analysis of the deposited data

Results flagged for a closer look

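Of 49 gene and group combinations of 4 libraries examined, 4 held a library far from the other 3, all in NT_MEIS1ex; chance flags about 1 in 20. FCER2 stood at 85.8 CPM in NT_MEIS1ex replicate 2 against 111 to 112 CPM in the others, and without that library its change in MEIS1_KO turned from 0.08 to -0.01 without a call. FCAMR stood at 8.58 CPM in the same library against 6.63 to 6.89 CPM. HCST lay at 12.5 CPM in replicate 1 against 10.6 to 10.9 CPM. HOXA9 lay at 38.7 CPM in replicate 4 against 47.9 to 48.9 CPM. None of the 8 Fc receptor genes had such a library.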

How the results depend on the processing

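Each of 47 Fc receptor results was recomputed under the alternatives that could be fitted. Of 915 values, 885 kept their direction and their side of the threshold, 10 lost a call, 13 gained one and 7 changed sign. Sign changes with nuclear protein-coding scaling were FCGR1A between HOXA9_KO and SAFB_KO (-0.088), and FCGR2A (-0.19, adjusted p = 0.0102) and FCGR2B (-0.053) in the difference of the HOXA9 and MEIS1 effects. Without single libraries FCGR1A between HOXA9_KO and SAFB_KO ranged from -0.026 to 0.075, and FCER1A in the difference of the HOXA9 and MEIS1 effects from -0.47 to 0.16. Among other genes with nuclear scaling, B2M in HOXA9_KO became -0.066, and C4orf3 and ROS1 in SAFB_KO -0.015 and -0.052. FCGR1BP in HOXA9_KO became 0.0251 with RLE factors, 0.0255 with DESeq2, 0.023 in the fit of only the groups compared, 0.016 in that of all 17 libraries and -0.063 to 0.037 without single libraries. The ranges without single libraries also spanned 0 for MARCHF1 (-0.076 to 0.028) and TREML1 (-0.31 to 0.065) in SAFB_KO and for FCER2 in MEIS1_KO (-0.0099 to 0.11). The cause of these changes was not tested. FCER1A in the SAFB and MEIS1 difference (1.14 ± 0.43, adjusted p = 0.0542) passed in 6 settings (without HOXA9_KO replicate 1, MEIS1_KO replicate 4 or NT replicate 1, and with limma-voom, RLE factors or DESeq2), with a lowest adjusted p of 0.0218.

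Counts of Fc receptor genes called in either direction stayed within 1.5 times of those reported under every alternative run, but by direction the SAFB and MEIS1 difference went from 4 higher and 1 lower to 2 and 2 with nuclear scaling. Over all genes, 1387 were called in MEIS1_KO, 2144 when all 17 libraries were fitted together, and 751 to 1772 without single libraries: 751 without MEIS1_KO replicate 3, 873 without MEIS1_KO replicate 2 and 884 without NT_MEIS1ex replicate 4. Nuclear protein-coding scaling moved the share of calls that were higher from 48.0% to 23.7% in HOXA9_KO, from 56.9% to 23.7% in SAFB_KO, from 56.5% to 68.5% in MEIS1_KO and from 49.4% to 29.6% between HOXA9_KO and SAFB_KO; for the differences from the MEIS1 effect it moved from 55.5% to 19.3% (HOXA9) and from 59.3% to 14.8% (SAFB). After the group mean of each gene was subtracted from its log CPM, same-numbered replicates of different groups correlated by -0.15 to 0.09. These remainders gave little sign that the numbers pair the libraries. With a replicate block the members called stayed at 7, 7, 5 and 7 in HOXA9_KO, SAFB_KO, MEIS1_KO and between HOXA9_KO and SAFB_KO, and all genes called were 10787, 6718, 1195 and 7642. FCGR3A and FCER1A, with as few as 1 and 11 counts per library, are the members that depth limits most.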
